A study of Mus musculus with 22 samples.

Results

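Complement and coagulation are plasma protease cascades whose circulating zymogens, cofactors and inhibitors are made largely by hepatocytes. A list of 38 such genes was followed around the day in mouse liver, and the 35 that have a named feature on the array are described here. C3, Klkb1 and Cpb2 of the list were not analysed here. The livers came from 22 male mice with a global knockout of adiponectin (strain B6;129-Adipoqtm1Chan/J on a C57BL/6J background), aged 3 to 8 months, group-housed on a cycle of 12 light and 12 dark hours with free chow and water. Time is zeitgeber time (ZT), the hours after lights on, sampled with 4 livers each for ZT2, ZT10, ZT14 and ZT22 and 3 each for ZT6 and ZT18, and the first 3 times fall in the light, when mice mostly rest. All animals lack adiponectin, a hormone of fat cells, in every tissue, so each comparison is between times of day within the knockout, and no effect of adiponectin loss was measured; livers of wild-type mice were not analysed here. RNA from each liver was read on its own Clariom S array, and the values are log2 expression values of 22206 features. Arrays of one time are told apart by a letter (ZT2a), and each was taken as 1 mouse, since the design text gives 3 to 4 mice per time.

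In complement, the classical, lectin and alternative pathways converge on convertases that cleave the central component, after which late components assemble into a pore in the target membrane. In coagulation, the contact and tissue factor routes lead to thrombin, which turns fibrinogen into fibrin, and plasmin later dissolves the clot. Most of these proteins are abundant in plasma, some of them are acute phase proteins whose synthesis increases in inflammation, and several clotting factors need vitamin K for a modification of their glutamate residues.

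Of 35 genes 4 were called for a 24 h rhythm (limma's moderated F test of a cosine curve with a 24 h period, Benjamini-Hochberg adjusted p under 0.05 over all features): Serpinf2, Fga, C2 and C9. This is 11.4% of the genes, beside 7.62% of all features and 13.6% of the features above the median level, where all 35 lie. The share is near that background and is no result about the list. The fitted span, the fold from the trough to the peak of the cosine, had a median of 1.20-fold over the 35 genes, against 1.24-fold over all features and 1.29-fold over those above the median level. The spans ran from 1.03-fold to 1.82-fold, and 0 of 35 reached 2-fold. The highest and lowest time means, which follow no curve, lay over 1.5-fold apart in 11 of 35 genes (31.4%), against 36.9% of all features and 45.3% of those above the median level, with the widest gaps in Mbl1 (2.26-fold) and F11 (2.09-fold). The median SD between livers of a time was 0.19 in these genes and 0.30 in features above the median level. By level the 35 genes lay between percentile 88.1 (Pros1) and percentile 99.9 (Vtn) of all features. The features above the median level are thus not matched to them in level, and no matched set was compared. The deposited values of Vtn and Fgg averaged within 1 log2 unit of the highest value on the array, 0.29 and 0.54 below it, and differences there may be compressed, which was not tested.

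**Figure D1:**
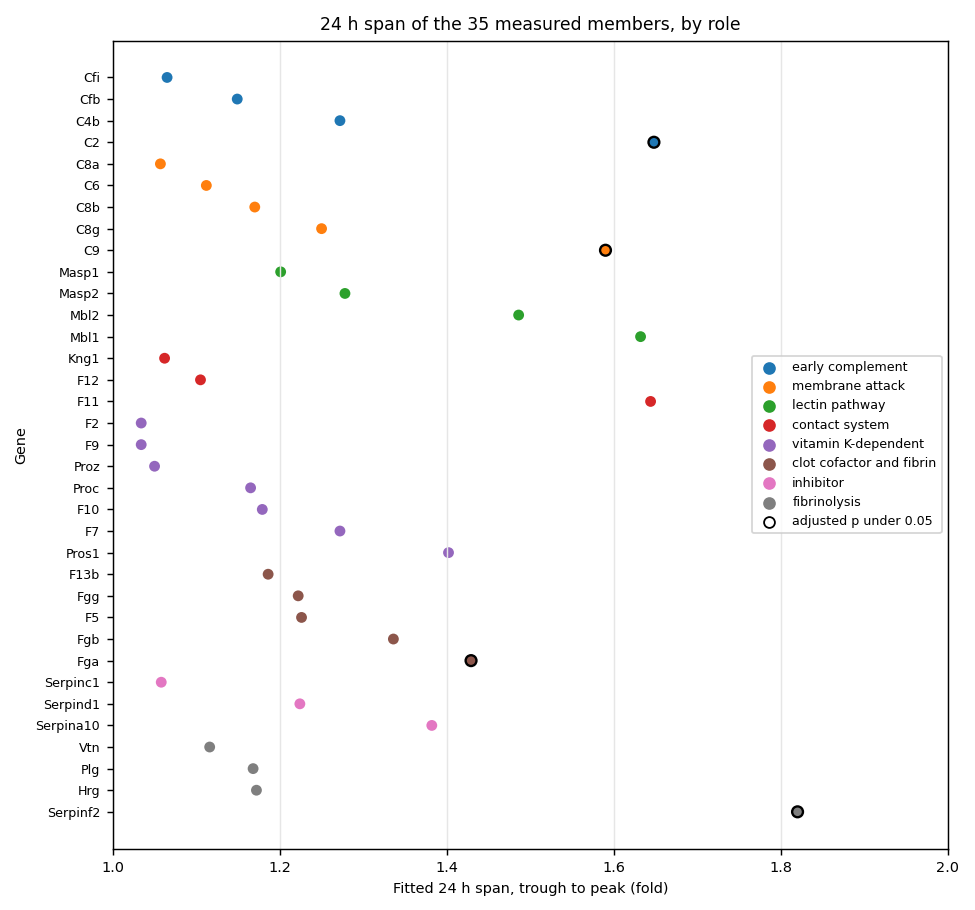
Fitted 24 h span (fold from trough to peak, horizontal axis) of the 35 measured genes (vertical axis), coloured by role, with a black ring where the adjusted p of limma's 24 h test was under 0.05. The spans lie between 1.03-fold and 1.82-fold, and the 4 ringed genes are C2, C9, Fga and Serpinf2.

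A set of 5 arrays stood apart from the other 17. Tff3, which encodes a trefoil peptide, measured 10.35 to 13.63 in ZT6b, ZT6c, ZT14b, ZT14d and ZT22a and 2.31 to 4.73 in the other 17. Mbl2 and Pros1 followed the same split. Mbl2, a mannose-binding lectin that starts the lectin pathway, lay between 15.70 and 16.18 in these 5 arrays and between 14.32 and 15.40 in the other 17. Pros1, the vitamin K-dependent protein S that aids activated protein C, lay between 10.95 and 11.52 in the 5 and between 9.74 and 10.75 in the rest. The other 33 genes overlapped between these arrays, and 0.608% of all features did not. The 5 arrays were picked by their Tff3 values and are not a group of the study, so these values are a description with no test. For the genes of the list, results are therefore given with and without them where a call changes. For regulators and other genes of the same systems this was done for the 24 h calls only. The calls of acute phase genes and cell markers, and those of F2r and Hnf4a, are given with all arrays only. Whether those calls remain without these 5 arrays was not examined.

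Serpinf2 encodes the main inhibitor of plasmin, which protects fibrin from being dissolved, and it showed the largest span of the 35 genes. Its values were 17.10, 16.96, 16.66 and 17 at ZT2, 16.77, 17.13 and 17.24 at ZT6, and 16.44, 16.55, 16.98 and 16.61 at ZT10. In the dark they were 15.89, 16.27, 16.39 and 16.34 at ZT14, 16.30, 16.32 and 16.12 at ZT18, and 16.47, 16.67, 16.59 and 16.92 at ZT22. The time means were 16.93 ± 0.19 (SD, n = 4), 17.05 ± 0.25 (n = 3), 16.65 ± 0.23 (n = 4), 16.22 ± 0.23 (n = 4), 16.25 ± 0.11 (n = 3) and 16.66 ± 0.19 (n = 4) in that order. Every array of ZT14 and ZT18 thus lay below every array of the other 4 times. The fitted peak was at ZT4.07 ± 0.613 h (SE, n = 22) with a 1.82-fold span (limma's 24 h test, adjusted p = 0.000771). The call remained in each of 22 omissions of a single array and without the 5 arrays high in Tff3 (1.74-fold, adjusted p = 0.0183).

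Fga, Fgb and Fgg encode the 3 chains of fibrinogen, the precursor of fibrin and an acute phase protein, and they lie side by side in the genome. Fga measured 18.91, 19.01, 19.04 and 18.84 at ZT2, 18.87, 18.90 and 18.99 at ZT6, and 18.65, 18.68, 18.69 and 18.87 at ZT10. It went on with 18.61, 18.39, 18.62 and 18.38 at ZT14, 18.55, 18.43 and 18.45 at ZT18, and 18.76, 18.62, 18.82 and 18.82 at ZT22. The time means were 18.95 ± 0.09 (SD, n = 4), 18.92 ± 0.06 (n = 3), 18.72 ± 0.10 (n = 4), 18.50 ± 0.13 (n = 4), 18.48 ± 0.06 (n = 3) and 18.76 ± 0.09 (n = 4) from ZT2 to ZT22. The arrays of ZT2 and ZT6 did not overlap those of ZT14 and ZT18. The span was 1.43-fold with a peak at ZT3.82 ± 0.816 h (SE, n = 22; limma, adjusted p = 0.0122), called in all 22 omissions of one array but not without the 5 arrays high in Tff3 (1.38-fold, adjusted p = 0.130).

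Fgb and Fgg had courses of like shape that were not called. Fgb measured 18.26, 18.41, 18.15 and 18.14 at ZT2, 18.09, 18.28 and 18.20 at ZT6, 18, 17.91, 18.08 and 18.05 at ZT10, 18.03, 17.75, 18.04 and 17.93 at ZT14, 17.82, 17.77 and 17.72 at ZT18, and 18.02, 17.94, 17.90 and 18.02 at ZT22. All arrays of ZT2 and ZT6 lay above all others. Its means were 18.24 ± 0.13 (SD, n = 4) at ZT2 and 17.77 ± 0.05 (SD, n = 3) at ZT18, and its 1.34-fold span with a fitted peak at ZT4.58 gave an adjusted p of 0.0694 in limma's test. Fgg had its highest mean at ZT2, 19.44 ± 0.04 (SD, n = 4), and its lowest at ZT14, 19.14 ± 0.13 (SD, n = 4), with a 1.22-fold span and an adjusted p of 0.211. That the chains differ in rhythm was not tested. Fgb was called when only features above the median level were tested (adjusted p = 0.02065), with a trended and robust prior (0.01405) and with array weights (0.0404).

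**Figure D2:**
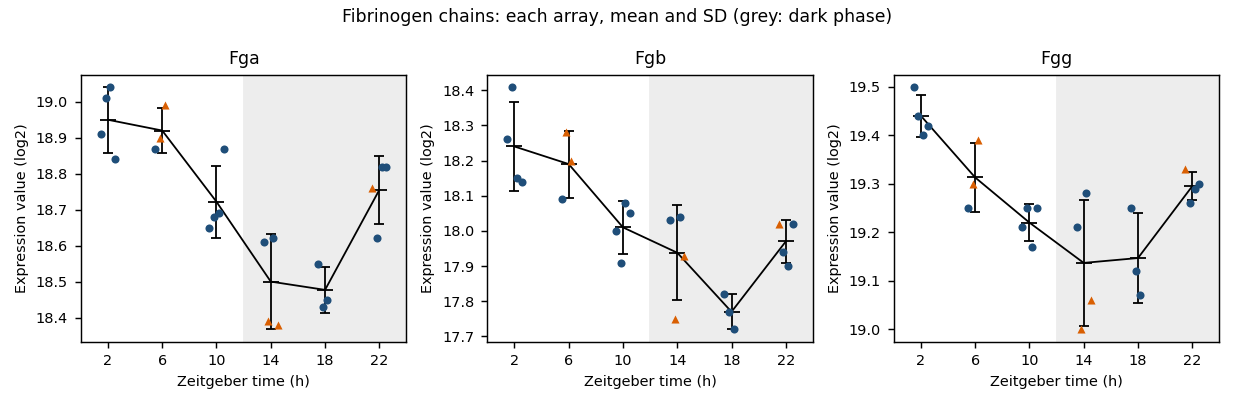
Expression values (log2, vertical axes) of Fga, Fgb and Fgg in each of 22 arrays against zeitgeber time (h), with black lines for the mean and SD of each time, triangles for the 5 arrays high in Tff3, circles for the others and grey for the dark phase. In each chain the mean is highest at ZT2, while the lowest is at ZT18 in Fga and Fgb and at ZT14 in Fgg.

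The 3 chains were also set against each other liver by liver, after the mean of each time was taken off (n = 22 arrays). Pearson's r was 0.649 for Fgg with Fga (permutation p = 0.0135), 0.576 for Fgg with Fgb (0.0249) and 0.506 for Fga with Fgb (0.0555), with the arrays shuffled within times in 100000 two-sided permutations. Spearman's rho was 0.657, 0.569 and 0.560 for these pairs (permutation p = 0.0137, 0.0274 and 0.0284). Neighbouring here means less than 100 kb apart, also where another gene lies between. Adjusted over the 9 such pairs among the 35 genes, 0 pairs passed. The permutation p of r came to 0.112, 0.112 and 0.167, and that of rho to 0.0853 for each. Without the 2 arrays farthest from the median of the first-named gene of the pair, r was 0.546, 0.369 and 0.456. The second gene had no part in that choice. Without the 5 arrays high in Tff3 r was 0.335, 0.248 and 0.344. In the other 6 neighbouring pairs (Cfb with C2, C8b with C8a, Hrg with Kng1, and F7, F10 and Proz with each other) r lay between −0.371 and 0.229, with an adjusted permutation p from 0.391 to 0.988. Over all 595 pairs of the 35 genes the median r was 0.0785. All pairs share the same arrays and their scaling, which can move genes together.

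C2, the protease that joins the convertase of the classical and lectin pathways, ran in the other phase. It measured 11.24, 11.14, 11.02 and 11.40 at ZT2, 10.95, 10.82 and 11.29 at ZT6, and 11.92, 11.93, 11.89 and 11.66 at ZT10. The values were 11.65, 11.85, 11.65 and 12.12 at ZT14, 11.48, 11.25 and 11.66 at ZT18, and 11.80, 11.48, 11.18 and 10.90 at ZT22. The time means were 11.20 ± 0.16 (SD, n = 4), 11.02 ± 0.24 (n = 3), 11.85 ± 0.13 (n = 4), 11.82 ± 0.22 (n = 4), 11.46 ± 0.21 (n = 3) and 11.34 ± 0.39 (n = 4). Every array of ZT10 and ZT14 lay above every array of ZT2 and ZT6, while ZT22 spread over much of the range. The span was 1.65-fold with a peak at ZT13.7 ± 0.946 h (SE, n = 22; limma, adjusted p = 0.0190). The call was lost without ZT14d (adjusted p = 0.0506) and remained without the 5 arrays high in Tff3 (1.60-fold, 0.0344). Its neighbour Cfb, the corresponding protease of the alternative pathway, had a 1.15-fold span (adjusted p = 0.735).

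C9 encodes the last component to join the membrane attack complex, where it forms the wall of the pore. It measured 15.54, 15.36, 15.17 and 15.11 at ZT2, 15.13, 15.62 and 15.21 at ZT6, and 15.36, 15.41, 15.63 and 15.52 at ZT10. In the dark there were 14.64, 14.86, 15.10 and 15.04 at ZT14, 14.57, 14.83 and 14.98 at ZT18, and 15.13, 15.39, 14.91 and 14.53 at ZT22. The time means were 15.30 ± 0.20 (SD, n = 4), 15.32 ± 0.26 (n = 3), 15.48 ± 0.12 (n = 4), 14.91 ± 0.21 (n = 4), 14.79 ± 0.21 (n = 3) and 14.99 ± 0.36 (n = 4). All arrays of ZT2, ZT6 and ZT10 lay above all arrays of ZT14 and ZT18, and ZT22 overlapped both. The span was 1.59-fold, with a peak at ZT6.35 ± 0.870 h (SE, n = 22; limma, adjusted p = 0.0307). The call was lost without ZT6b (adjusted p = 0.0663), ZT18a (0.0786), ZT18b (0.0527) or ZT22d (0.05003), and without the 5 arrays high in Tff3 (1.64-fold, 0.0839).

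**Figure D3:**
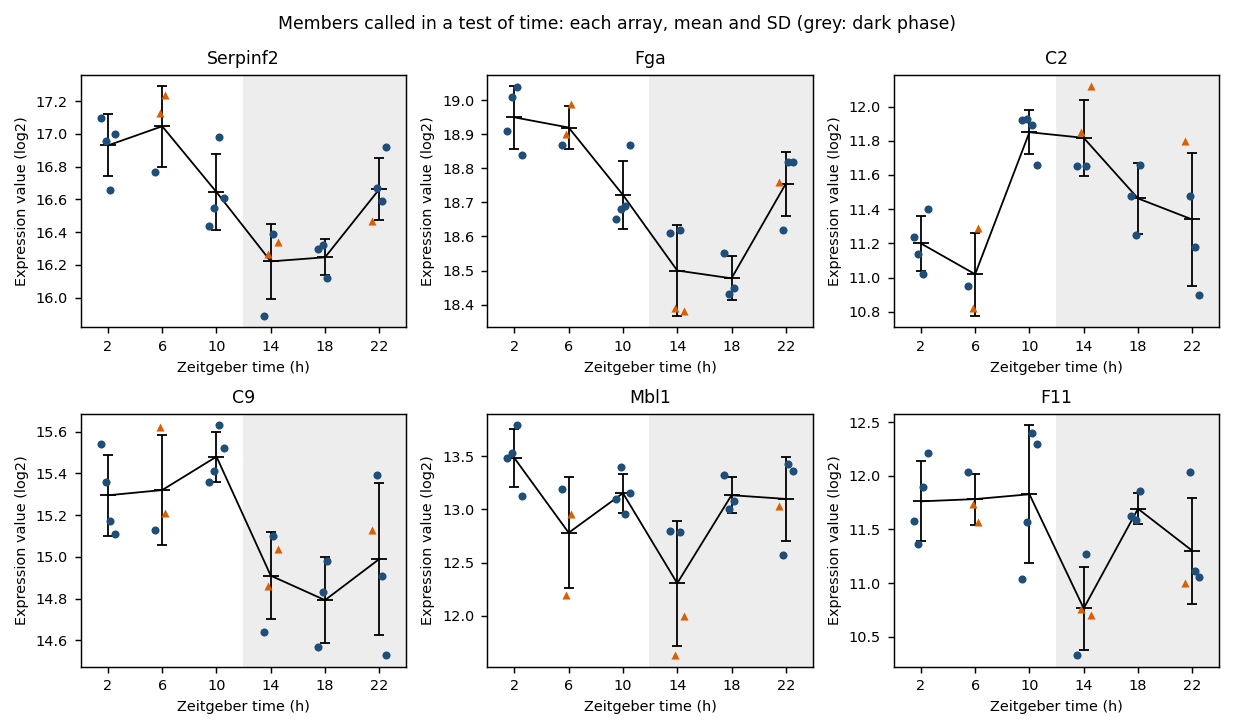
Expression values (log2, vertical axes) of Serpinf2, Fga, C2, C9, Mbl1 and F11 in each of 22 arrays against zeitgeber time (h), with black lines for the mean and SD, triangles for the 5 arrays high in Tff3, circles for the others and grey for the dark phase. Serpinf2 and Fga are lowest at ZT14 and ZT18, C2 is highest at ZT10 and ZT14, and Mbl1 and F11 have their lowest means at ZT14.

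The bases just before the transcription start are shown for the 3 genes of lowest adjusted p that have a RefSeq entry (Serpinf2, Fga and C9; C2 has none) and for the other fibrinogen chains, since these courses are the ones the results turn on. Each is 250 bases long, ends at the base before the start, and is read 5′ to 3′ on the gene's strand (RefSeq, GRCm38.p6): Serpinf2 at chr11:75439502-75439751, minus strand, Fga at chr3:83025903-83026152, plus strand, C9 at chr15:6445096-6445345, plus strand, Fgb at chr3:83049864-83050113, minus strand and Fgg at chr3:83007474-83007723, plus strand. Capitals mark matches, on either strand, to the full HNF1 site, to its arm GTTAAT (which the full site holds), to the box named CCAAT after its letters, to the D-box forms TTATGTAA and TTATGCAA, and to the E-box CACGTG.
Serpinf2: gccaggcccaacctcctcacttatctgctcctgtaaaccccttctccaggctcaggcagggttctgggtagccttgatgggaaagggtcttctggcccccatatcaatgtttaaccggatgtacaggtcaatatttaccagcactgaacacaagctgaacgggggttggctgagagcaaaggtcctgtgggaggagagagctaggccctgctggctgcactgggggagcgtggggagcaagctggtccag
Fga: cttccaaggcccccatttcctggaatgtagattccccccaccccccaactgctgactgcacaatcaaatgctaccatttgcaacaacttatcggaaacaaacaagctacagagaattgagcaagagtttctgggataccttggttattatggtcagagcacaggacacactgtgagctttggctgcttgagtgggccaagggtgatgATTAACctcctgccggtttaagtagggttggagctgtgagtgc
C9: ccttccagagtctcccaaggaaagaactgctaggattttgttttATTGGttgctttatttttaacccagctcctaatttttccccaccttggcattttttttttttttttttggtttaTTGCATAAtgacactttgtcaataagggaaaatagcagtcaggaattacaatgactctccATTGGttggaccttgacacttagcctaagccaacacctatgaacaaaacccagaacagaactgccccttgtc
Fgb: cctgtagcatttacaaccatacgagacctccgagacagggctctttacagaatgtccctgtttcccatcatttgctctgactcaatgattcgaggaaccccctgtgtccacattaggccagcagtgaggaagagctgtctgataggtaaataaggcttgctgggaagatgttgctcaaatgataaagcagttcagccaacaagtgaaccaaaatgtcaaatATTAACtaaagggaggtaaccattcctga
Fgg: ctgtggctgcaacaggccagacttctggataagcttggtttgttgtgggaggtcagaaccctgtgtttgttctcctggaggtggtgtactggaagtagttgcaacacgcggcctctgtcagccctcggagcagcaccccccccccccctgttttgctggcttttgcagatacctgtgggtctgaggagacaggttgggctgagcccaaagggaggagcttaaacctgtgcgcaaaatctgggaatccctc

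In the C9 sequence TTATGCAA, a form of the D-box that the clock output factors DBP, TEF and HLF and the repressor NFIL3 are known to bind, stands on the other strand from 132 to 125 bases before the start. It was present in 1 of the 26 genes with a RefSeq entry and in 0.694% of 32851 promoter windows of the same length. CCAAT stood in the C9 window as well, from 206 to 202 and from 72 to 68 bases before the start (other strand). It was in 6 of the 26 windows (23.1%) and in 33.8% of all windows. The HNF1 arm GTTAAT, part of the site of the liver factor HNF1, stood on the other strand from 43 to 38 bases before the start of Fga and from 29 to 24 before that of Fgb. Of the 26 windows 7 held it (26.9%), against 6.43% of all windows. The 26 are 1 window per gene, while the set of all windows was not reduced to 1 per gene, so these shares are of unlike units. The full HNF1 site was in 0.00913% of all windows, TTATGTAA in 0.819% and the E-box in 6.02%, and none of these 3 was in the 26. The windows of Serpinf2 and Fgg held none of the searched motifs. The GTTAAT arm was added to the search after the data had been seen. A match is a string of letters and does not show binding.

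Among the other early complement genes, none was called. C4b, the classical pathway component that joins C2, had a 1.27-fold span (limma, adjusted p = 0.340), and Cfi, the protease that cleaves and inactivates its active fragment, 1.07-fold (0.938). C4b has a close copy in the mouse, and signal from it cannot be told apart here. Of the 5 membrane attack genes only C9 was called. C8a, C8b and C8g, which encode the 3 chains of the eighth component, had spans from 1.06-fold to 1.25-fold. C6 had the largest SD between livers of a time, 0.54, and its values ran from 14.75 in ZT2d to 17.56 in ZT10d. The other arrays of ZT2 lay between 16.54 and 17.02. With ZT2d the SD of C6 was 1.03 at ZT2, against 0.08 to 0.49 at the other times, so its rank rests largely on this array.

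Of the 4 lectin pathway genes none was called for a rhythm. Mbl1, the other mannose-binding lectin, had a 1.63-fold span (adjusted p = 0.182), Mbl2 1.49-fold (0.392), and the proteases Masp1 and Masp2 1.20-fold and 1.28-fold (0.629 and 0.354). For Mbl2 the split noted above fell inside times: the 5 arrays accounted for its highest values at ZT6, ZT14 and ZT22. Of the 3 measured genes of the contact system none was called either, with F12 at 1.11-fold, Kng1, the kininogen that carries bradykinin, at 1.06-fold, and F11, which activates factor IX, at 1.64-fold (adjusted p = 0.872, 0.908 and 0.269). Kng1 has a near copy, Kng2, on the same arrays.

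The 7 vitamin K-dependent genes gave no call. F2, which encodes prothrombin, measured from 17.13 to 17.67 over the 22 arrays with a 1.03-fold span, and F9 had 1.03-fold and F10 1.18-fold (adjusted p = 0.973, 0.978 and 0.595). F7, the partner of tissue factor, had 1.27-fold (0.416). Proc, the anticoagulant protein C, its cofactor Pros1 and Proz, a cofactor for inhibition of factor X, had 1.17-fold, 1.402-fold and 1.05-fold (0.463, 0.496 and 0.937).

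Inhibitors and the remaining genes were likewise not called. Serpinc1, which encodes antithrombin, was the steadiest of the 35, with all 22 arrays between 17.71 and 17.89. Serpind1, heparin cofactor II, had a 1.22-fold span (adjusted p = 0.260), and Serpina10, the partner of protein Z, 1.38-fold with a fitted peak at ZT12.2 (0.0771). Serpina10 measured 13.36, 13.46, 13.44 and 13.09 at ZT2, 13.21, 13.46 and 13.71 at ZT6, 13.55, 13.77, 13.58 and 13.65 at ZT10, 13.75, 13.93, 13.69 and 13.92 at ZT14, 13.40, 13.23 and 13.52 at ZT18, and 13.67, 13.45, 13.09 and 13.05 at ZT22. Its arrays of ZT14 lay above all of ZT2, ZT18 and ZT22 and overlapped those of ZT6 and ZT10. Serpina10 was called without ZT22a (0.0390), when only features above the median level were tested (0.0333) and with a trended and robust prior (0.0453). F5, the cofactor of factor Xa, and F13b, the carrier subunit of the fibrin-crosslinking factor, had 1.23-fold and 1.19-fold. Plg, the zymogen of plasmin that the product of Serpinf2 inhibits, had 1.17-fold (adjusted p = 0.465) with values from 17.68 to 18.12. Hrg, which binds plasminogen, and Vtn, which binds and stabilises the inhibitor of plasminogen activators, had 1.17-fold and 1.12-fold. Of the genes not called for a 24 h rhythm, Vtn, Fgg and Kng1 had the highest array values and Pros1, F11 and F13b the lowest, although levels on different probes cannot be set against each other.

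For light against dark, the 3 times in the light were averaged and the average of the 3 dark times was taken off. The difference passed in 3 of 35 genes, beside 5.27% of all features in either direction. All 3 were higher in the light, as were 2.02% of all features. For this contrast, the times 12 h apart and the test of any difference, the share of features above the median level was not counted. Serpinf2 was 0.50 ± 0.10 log2 units higher in the light (limma SE; adjusted p = 0.00526), C9 0.47 ± 0.11 (0.0150) and Fga 0.29 ± 0.08 (0.0430). Those of Serpinf2 and C9 remained in all 22 omissions of one array (adjusted p up to 0.0167 and 0.0415). That of Fga was lost in 19 of 22, with an adjusted p up to 0.0872, and also with each array centred on its median (0.0516) or a block fitted for the replicate letter (0.0665). Without the 5 arrays high in Tff3 the differences were 0.41 ± 0.13, 0.43 ± 0.15 and 0.23 ± 0.11 (adjusted p = 0.108, 0.124 and 0.296). The median difference was 0.079 over the 35 genes, 0.013 over all features and −0.0425 over features above the median level. For the genes not called, the farther end of the 95% interval stood for at most 1.85-fold, and for 29 of them it was under 1.5-fold.

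**Figure D4:**
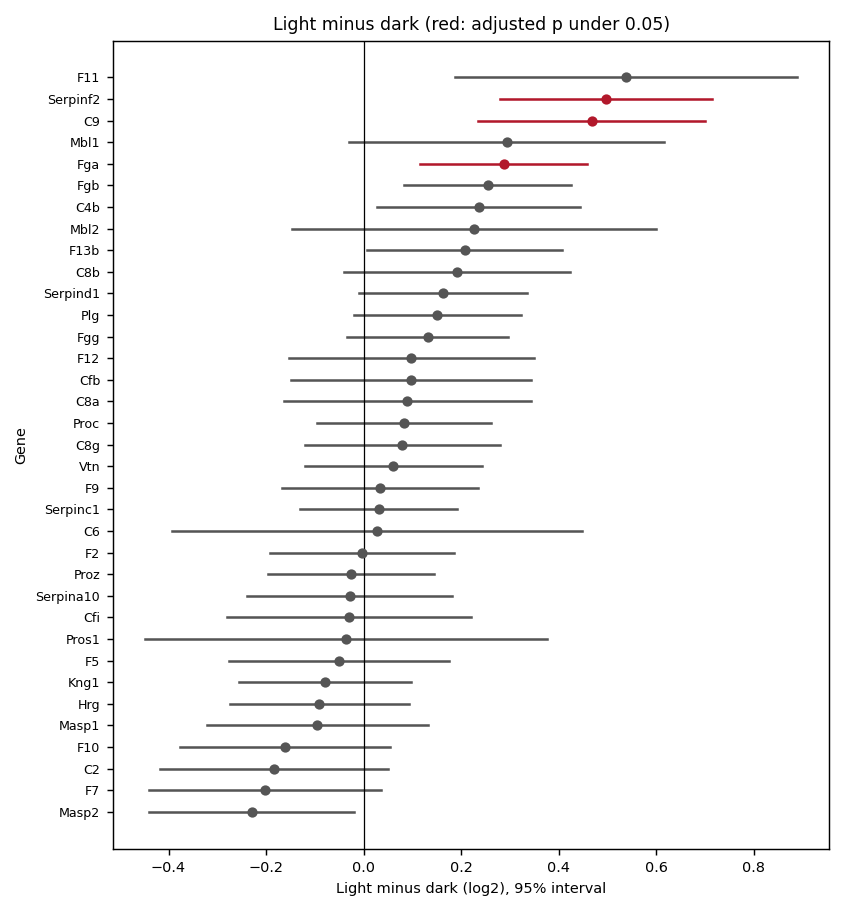
Light minus dark difference (log2, horizontal axis) of each of the 35 genes (vertical axis) with its 95% interval from limma, red where the adjusted p was under 0.05. Serpinf2 (0.50), C9 (0.47) and Fga (0.29) are red and to the right of 0, and the intervals of F11, Fgb, C4b and F13b (above 0) and Masp2 (below 0) exclude 0 without passing after adjustment.

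Single times 12 h apart gave few calls. At ZT2 against ZT14, 3 of 35 genes passed, beside 4.27% of all features, and all 3 were higher at ZT2, as were 2.07% of all features. Mbl1 measured 13.48, 13.53, 13.79 and 13.13 at ZT2 and 12.80, 11.63, 12.79 and 12.00 at ZT14, a difference of 1.18 ± 0.26 (limma SE; adjusted p = 0.00661), and the lowest 2 values at ZT14 were ZT14b and ZT14d of the Tff3 split. F11 measured 11.58, 11.36, 11.90 and 12.21 at ZT2 and 10.33, 10.76, 11.27 and 10.70 at ZT14, a difference of 0.998 ± 0.279 (0.0403). In neither gene did the times overlap. Serpinf2 differed by 0.71 ± 0.17 (0.0162).

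The call of Mbl1 at ZT2 against ZT14 remained in all 22 omissions of one array, that of Serpinf2 was lost without ZT2a or ZT14a (adjusted p up to 0.0628), and that of F11 was lost without ZT2a, ZT2c, ZT2d, ZT14a, ZT14b, ZT14d, ZT18a or ZT18b (up to 0.140). Without the 5 arrays high in Tff3 the differences were 0.69 ± 0.24 in Mbl1, 0.96 ± 0.36 in F11 and 0.79 ± 0.21 in Serpinf2, and none passed (adjusted p = 0.189, 0.229 and 0.0592). At ZT6 against ZT18, 1 of 35 passed, beside 1.13% of all features: Serpinf2, higher by 0.80 ± 0.20 at ZT6 (limma, adjusted p = 0.0468). That call was lost in 16 of 22 omissions (up to 0.182), and in the fit with a block for the replicate letter (0.0612). Without the 5 arrays ZT6 keeps a single liver, ZT6a, whose spread is taken from the other times, and the difference was 0.52 ± 0.28 (limma SE, adjusted p = 0.475). At ZT10 against ZT22 limma called 0 of 35, beside 3.30% of all features called. Of the 35, 5 had an unadjusted p under 0.05 there, a cut at which the share of all features was not counted. Without the 5 arrays C2 passed there (0.66 ± 0.18 higher at ZT10, adjusted p = 0.0460).

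A test of any difference among the 6 time means, which assumes no shape, passed in 2 of 35 genes, C2 (limma, adjusted p = 0.02625) and Serpinf2 (0.0140), beside 6.14% of all features. The call of Serpinf2 remained in all 22 omissions and that of C2 was lost without ZT6b, ZT10a, ZT10b, ZT10c or ZT14d (adjusted p up to 0.0604). With the replicate letter as a block C2 did not pass (0.0560) and Mbl1 did (0.0370, against 0.0530 without the block). Without the 5 arrays high in Tff3 neither passed (0.0666 for C2, 0.106 for Serpinf2). The means lay lowest at ZT14 in 16 of 35 genes (45.7%, against 18% of features above the median level) and highest at ZT10 in 11 (31.4%, against 14.4%). These shares are a description with no test, and the genes share the same livers. Of the 16 genes lowest at ZT14, Serpinf2 alone passed this test. A 12 h component added to the 24 h cosine was called by limma in 0 of 35 genes, beside 0.018% of all features called. An unadjusted p under 0.05 was found in 3 genes (F13b, Masp1 and Masp2), and the share of all features at that cut was not counted.

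**Figure D5:**
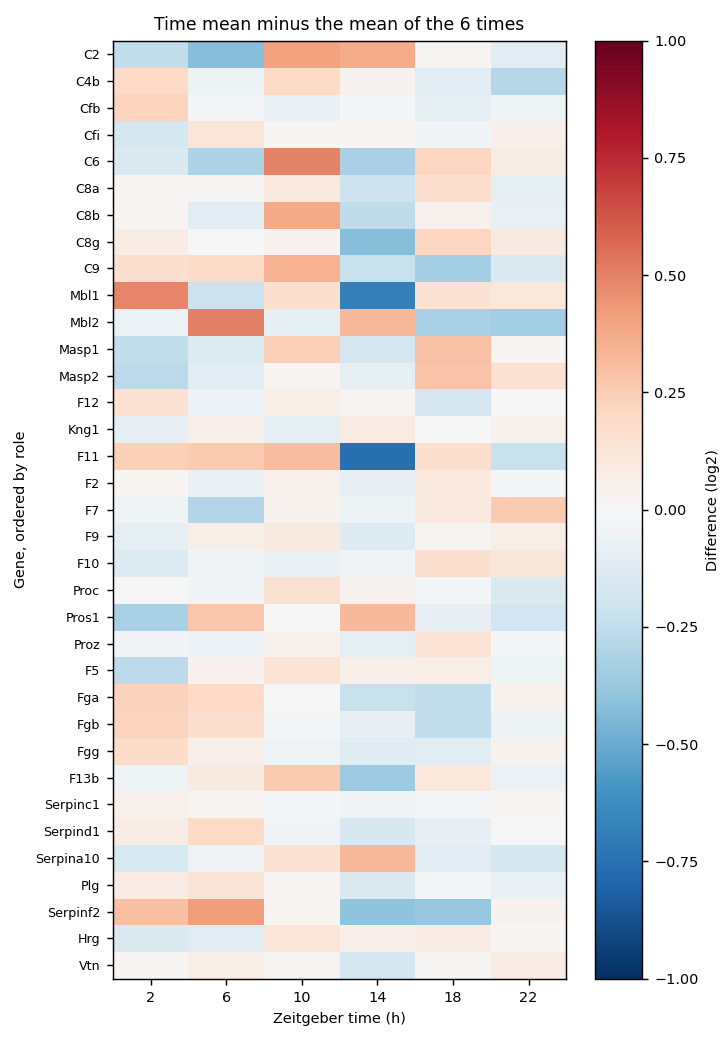
Mean of each time minus the mean of the 6 times (log2, colour) for the 35 genes (vertical axis, ordered by role) at each zeitgeber time (h, horizontal axis). The deepest blue cells are those of F11 and Mbl1 at ZT14, and the red cells of C2 at ZT10 and ZT14 stand against blue at ZT2 and ZT6.

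Other genes of the same systems were looked at as a list of 59, of which 53 were measured and 4 were called for a 24 h rhythm (7.55%, beside the 7.62% of all features). Tfpi2, an inhibitor of plasmin and of tissue factor with factor VII, had a larger span than any of the 35 genes: its mean went from 12.115 ± 0.34 (SD, n = 4) at ZT22 to 10.20 ± 0.35 (SD, n = 4) at ZT14, a 3.86-fold span with a peak at ZT0.343 (limma, adjusted p = 1.77e-05). F3, the tissue factor itself, was dim, with means from 4.32 to 5.33, and peaked at ZT8.40 (1.84-fold, 0.00726). Vkorc1l1, a relative of the reductase that recycles vitamin K, peaked at ZT14.9 (1.76-fold, 0.0110). Cd55, which speeds the decay of complement convertases, peaked at ZT21.1 (1.77-fold, 0.0268), a call lost without ZT10b or ZT10c (up to 0.0724) and without the 5 arrays high in Tff3 (0.0594). F2r, a thrombin receptor, passed the test of any difference (0.0209) and not that of a 24 h rhythm (0.1595). C1qa, C1qb and C1qc, Hc (the fifth component), Vkorc1 and Ggcx were not called.

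Among regulators known to act on liver genes, clock genes and clock output factors among them, 8 of 17 measured were called for a 24 h rhythm (47.1%, beside 7.62% of all features): Dbp (348-fold, peak at ZT10.9), Nr1d1 (118-fold), Arntl (33.7-fold), Nfil3 (4.84-fold, ZT22.8), Tef, Ppara (2.68-fold), Hlf (2.48-fold, ZT14.4) and Cebpd (1.83-fold, ZT15.6), with limma's adjusted p at most 0.0116 (Cebpd). Dbp means ran from 7.41 at ZT2 to 16.00 at ZT10, Nr1d1 from 5.40 at ZT22 to 12.00 at ZT6, Arntl from 5.30 at ZT10 to 10.55 at ZT22 and Nfil3 from 6.92 at ZT10 to 9.30 at ZT2. Tef ran from 3.74 at ZT22 to 5.89 at ZT10, with 5 arrays in the lower quartile of features, so its fold is not given. Hlf ran from 7.99 at ZT6 to 9.37 at ZT14, Ppara from 11.59 at ZT2 to 13.47 at ZT10 and Cebpd from 5.79 at ZT6 to 6.93 at ZT14. The call of Cebpd was lost without the 5 arrays high in Tff3 (0.150). Hnf4a, a main activator of hepatocyte genes, had means from 12.81 at ZT2 to 13.67 at ZT14 and passed only the test of any difference (limma, adjusted p = 0.0208; 24 h rhythm 0.0581). Foxa2, Cebpa, Cebpb, Stat3, Nr1h4, Nr3c1, Nr5a2 and Onecut1 were not called in either test. Of 19 acute phase genes 6 were called for a 24 h rhythm (31.6%, beside 7.62% of all features and 13.6% of those above the median level). They were Saa1, Saa4 and Serpina3n with fitted peaks between ZT11.6 and ZT15.0, Fgl1 and Apcs at ZT7.95 and ZT5.13, and Lbp at ZT0.880. Most of the acute phase genes and of the regulators lie above the median level.

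Hepatocyte markers were bright and even: 0 of 7 measured were called for a 24 h rhythm, and their mean lay between 18.71 and 18.98 in every array. Alb, Apoa1, Ttr and Serpina1a averaged 19.80, 19.65, 19.61 and 19.45, while the highest value of an array lay between 19.56 and 19.87. Differences in these markers may be compressed, as said of Vtn and Fgg, which was not tested. The 5 measured megakaryocyte and platelet markers averaged between 4.76 and 5.32 with 0 called. Cd5l was the 1 of 7 called among Kupffer cell markers (list mean from 6.81 to 7.82) and Stab2 the 1 of 7 called among sinusoidal endothelial markers (list mean from 8.89 to 9.96), and their part in the results was not tested. S100a9 was the 1 called of 3 neutrophil markers, and none among 6 stellate, 5 bile duct, 4 lymphocyte, 4 adipocyte, 3 acinar and 1 erythroid markers. The test of any difference passed for Sox9 of the bile duct (adjusted p = 0.00901), Kdr and Clec4g of the endothelium (0.0214 and 0.0459) and Clec4f of Kupffer cells (0.0142) in limma. Kdr, Clec4g, Stab2 and Clec4f had their lowest means at ZT14, as 16 of the 35 genes did. The other Kupffer cell markers had theirs elsewhere, Vsig4, Timd4 and Csf1r at ZT6 and Cd5l, Adgre1 and Marco at ZT18. Of the other endothelial markers Lyve1 and Pecam1 were lowest at ZT10, Oit3 at ZT18 and Fcgr2b at ZT6. Sox9 was lowest at ZT10. The Kupffer list mean was lowest at ZT18 and the endothelial list mean at ZT14. The part of these cell types in the values of the 35 genes was not tested. In such bulk tissue fewer cells of a type and less RNA per cell cannot be told apart. Adipoq, the deleted gene, stayed between 3.30 and 4.69, near the lower quartile of the arrays (3.67 to 3.91), which checks the label little in a tissue that makes almost none of it.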

How the data were processed

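RNA of 22 livers was extracted with TRIzol, and 100 ng each was labelled with the WT Plus kit for Clariom S arrays, per the labels' protocols. The authors deposited 1 log2 value per feature and array; no source names the log base, which was taken as 2 from the range of the values. Background correction, summarization, normalization and genome build: not given in the sources used here. Array medians (5.28 to 5.36) show that some scaling was done. The number of arrays limits the precision, and p-values cover only how these livers differed.

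Genes were named by the platform annotation given with the data, and all 35 were found by gene ID in RefSeq (GRCm38.p6), with 1 feature each. Models were fitted with limma 3.58.1 (R 4.3.3) to all 22206 features, unfiltered, adjusted by Benjamini-Hochberg over all of them at 0.05, and tested on simulated data. Groups follow the time in the labels. The genes, lists and tests were chosen with earlier results of these data known. By rule, genes called for a rhythm or any difference are given with all time means, the 6 of lowest adjusted 24 h p with every array, and others by range, span or counts, the 3 brightest and 3 dimmest named. Alternatives were quantile normalization, median centring, features above the median level, a trended robust prior, a block for the replicate letter, arrayWeights, a threshold of 0.01, 12 h terms beside the 24 h test, omission of each array, and omission of the 5 arrays high in Tff3. Neighbour correlations were added after seeing the data.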

Additional observations from a re-analysis of the deposited data

Results flagged for a closer look

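In each time with 4 arrays, the highest and the lowest value of a gene was set against the other 3 (a gap over 0.829 of the range, which chance passes in about 5% of groups), and 10 of 140 groups had such an array. Low values were C2 in ZT10d (11.66, others 11.89 to 11.93), Masp2 in ZT2d (16.57, others 16.90 to 16.96), F2 in ZT2d (17.21, others 17.51 to 17.55), F9 in ZT2d (13.04, others 13.42 to 13.48), Pros1 in ZT2d (9.74, others 10.28 to 10.39) and Proc in ZT2c (16.08, others 16.23 to 16.25). High values were C8g in ZT14c (15.71, others 15.29 to 15.36), Mbl2 in ZT22a (15.70, others 14.32 to 14.55), F11 in ZT22b (12.04, others 11 to 11.11) and Serpinc1 in ZT22b (17.89, others 17.77 to 17.78). ZT2d gave 4 of the 10, and the gap of Serpinc1 is 0.11 log2 units wide.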

How the results depend on the processing

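Quantile normalization and median centring kept every count within 1.5 times its reported value; centring ended the light-dark call of Fga (adjusted p = 0.0516), and quantile normalization added Fga at ZT2 against ZT14 (0.0384, limma). Testing only features above the median level gave 5 genes for any difference among times, 5 for light against dark and 7 for ZT2 against ZT14. A trended robust prior gave 8, 5 and 6, and arrayWeights gave 5 for any difference and 6 for ZT2 against ZT14. The share of all features passing these tests in these settings was not counted, so the larger counts are no result about the list. For the 24 h test these settings called 6, 6 and 5 of the 35 genes, against 4 in the main fit. Fgb was added in each of them and Serpina10 in all but arrayWeights. Over all features tested the main fit called 1691 of 22206, and these settings called 2079 of 11103, 1818 of 22206 and 1972 of 22206. A threshold of 0.01 left 1 gene, Serpinf2, with a 24 h rhythm. Without the 5 arrays high in Tff3 the counts were 2 for the 24 h rhythm, 0 for any difference, 0 for light against dark, 0 for ZT2 against ZT14, 0 for ZT6 against ZT18 and 1 for ZT10 against ZT22; 17 arrays remained, with 1 at ZT6. When single arrays were left out the counts ran from 1 to 4 for any difference, from 1 to 4 for ZT2 against ZT14 and from 0 to 1 for ZT6 against ZT18. With the replicate letter as a block the 24 h count was 4 and that of ZT6 against ZT18 was 0, with no other count beyond 1.5 times. Still, C2 gave way to Mbl1 in the test of any difference and Fga left the light-dark calls. What the letter stands for is not given in the labels. Deviations of same-letter arrays had a median correlation of 0.00278, over 0.1 in 3 of 51 pairs, which cannot show that they share no batch. The cause of these changes was not tested. Other features of a gene could not be tried, since each gene has 1.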
